A study of Mus musculus with 6 samples.

Results

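Bulk RNA-seq of splenic CD8+ T cells held values for 9 genes of the cytotoxic granule and of contact killing. They were chosen by name, from their place in the killing machinery, as the 4 granzymes Gzma, Gzmb, Gzmk and Gzmm, the pore-forming protein Prf1, the granule genes Nkg7, Srgn and Ctsw, and the death ligand Fasl, and are 9 of the 28773 gene IDs in each library. The 6 libraries were from day 35, 3 from MWA+PBS mice and 3 from MWA+2DG mice. Both groups had their tumor treated by microwave ablation (MWA), after which one received PBS, the vehicle, and the other 2-deoxy-D-glucose (2DG), a glucose analogue that blocks the first steps of glycolysis, by repeated intraperitoneal injection that ended before the cells were taken. The mice of the study were female, and the age, strain and tumor model of these 6 samples were not given by their labels. No group without ablation is among these samples, so every value below is from ablated mice. The cells were isolated from spleens with a CD8+ T cell isolation kit after red cell lysis. The labels do not say whether each sample was a separate mouse, so the p-values measure only the spread between these samples.

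Cytotoxic T cells kill by contact. Granules move to the contact site and fuse with the cell membrane, perforin opens the target's membrane, and granzymes, which are serine proteases, enter and cleave proteins that start cell death. Fas ligand on the killer's surface engages the Fas receptor on the target and gives a second, granule-independent route. In memory CD8+ T cells these genes are transcribed at different levels from subset to subset, with Gzmb and Prf1 used as genes of effector cells and Gzmk often found in cells with memory features.

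Values are FPKM (fragments scaled to transcript length and to the mapped fragments of the library), so levels of different genes are per length. Totals of FPKM were between 291803 and 313257 in the 6 libraries, and read depth is unknown. Cd8a and Cd8b1, the 2 chains of CD8, were present in every library at 225.8 FPKM or more. Genes of other cells were read as well and moved with the groups: 12 neutrophil markers summed to between 67.02 and 91.86 FPKM in the MWA+PBS libraries and to between 1596.42 and 1776.51 in the MWA+2DG libraries, and 10 macrophage markers to between 765.17 and 821.99 and to between 107.61 and 117.65. Of 17 T lineage genes, 16 were called higher after 2DG and their median change was 0.44 on the log2 scale, so a second scaling to these genes is given beside the values as deposited. It sets the median of all tested genes at -0.41 in place of 0.05, and a change is read relative to that. The labels gave no batch, and a batch, if it went with the groups, cannot be told apart from 2DG.

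All 9 genes passed the filter of a mean of at least 1 FPKM and were tested in a limma fit over 12444 genes, two-sided, with Benjamini-Hochberg adjustment over all of them. At an adjusted p under 0.05, 6 were called higher in MWA+2DG (Gzmk, Gzmm, Ctsw, Nkg7, Fasl and, as deposited but at -0.01 with T lineage scaling, Prf1), 2 were called lower (Gzmb and Srgn) and Gzma was not called. Of all tested genes 39.4% were called, 22.3% higher and 17.1% lower, so the background is high. By the study's rule, read here as an unadjusted P under 0.05 and a change of more than 0.25 on the log2 scale since its methods name neither adjustment nor log base, the counts were also 6 higher and 2 lower, against 38.2% of all tested genes, 21.6% higher and 16.6% lower. The groups did not overlap for 8 of the 9, against 52.1% of tested genes, 30.2% with MWA+2DG higher and 21.9% with it lower. The median log2 fold change was 0.56, against 0.05 over all tested genes. In bulk samples, fewer cells of a type and less RNA per cell cannot be told apart. With T lineage scaling 2 genes were called higher (Gzmk and Gzmm) and 3 lower (Gzma, Gzmb and Srgn), and the other 4 were not called. Under that scaling 3.54% of all tested genes were called higher and 71.3% lower, so a lower call there is common over all genes.

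The order of the group means was the same in both groups: Nkg7, Ctsw, Srgn, Prf1, Gzma, Gzmb, Gzmk, Gzmm and Fasl, from high to low. Nkg7 reached 133.69 FPKM in the PBS group and 196.04 in MWA+2DG, and Fasl no more than 1.70 and 2.67. In MWA+PBS the ranges of Ctsw and Srgn, of Prf1 and Gzma, and of Gzmk and Gzmm overlapped, so these neighbours were not separated there. In MWA+2DG no neighbours overlapped, the closest being Gzmb, with a lowest value of 9.54 FPKM, and Gzmk, with a highest value of 9.32.

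**Figure D1:**
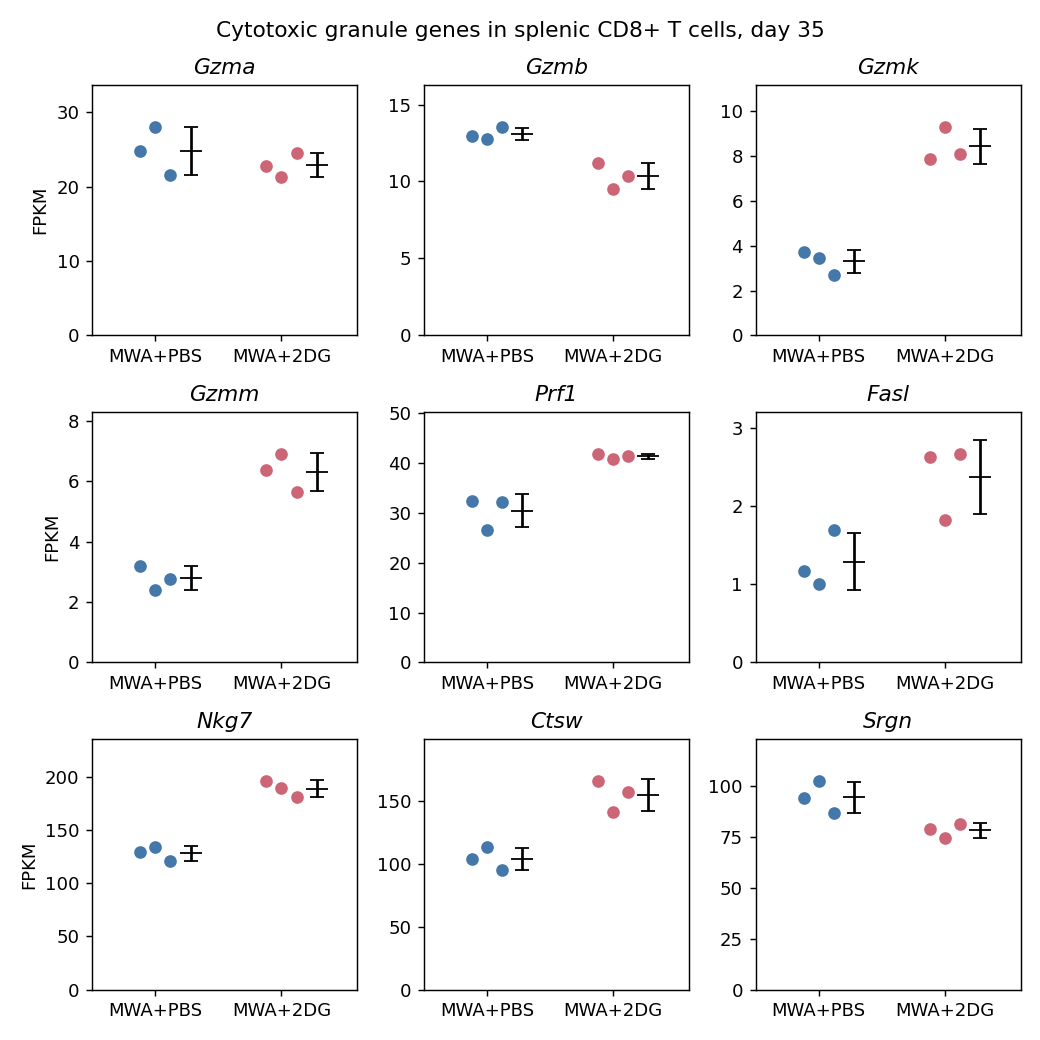
FPKM of the 9 genes in each library on a linear axis from 0, with 3 MWA+PBS libraries (blue) and 3 MWA+2DG libraries (red) and, in black, the group mean with its SD. Gzmk, Gzmm, Prf1, Fasl, Nkg7 and Ctsw sat higher in all 3 MWA+2DG libraries, Gzmb and Srgn lower, and Gzma overlapped, all as deposited, and with T lineage scaling the log2 fold change of Prf1 was -0.01.

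Among the granzymes, Gzmk (ENSMUSG00000042385) changed most. Granzyme K is a protease that cleaves after basic residues. It was read at 3.73, 3.46 and 2.71 FPKM in MWA+PBS libraries and at 7.88, 9.32 and 8.11 in MWA+2DG. All 3 MWA+2DG libraries lay well above the 3 MWA+PBS libraries. Means were 3.3 ± 0.528 and 8.437 ± 0.774 (SD, n = 3), 2.56-fold apart, and the log2 fold change was 1.14 ± 0.11 (SE, with a 95% confidence interval of 0.89 to 1.39 and an adjusted p of 0.000182 by limma). Of the tested genes, 99.2% had a smaller log2 fold change. It stayed called in each of 16 alternatives, at 0.69 with T lineage scaling and between 1.04 and 1.34 in the others.

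Gzmm (ENSMUSG00000054206) encodes granzyme M, a protease that prefers to cleave after methionine or leucine and is known from NK cells and innate-like T cells. Its values were 3.21, 2.40 and 2.78 FPKM in the PBS group and 6.38, 6.91 and 5.66 in MWA+2DG, so the groups did not overlap. The mean rose from 2.797 ± 0.405 to 6.317 ± 0.627 (SD, n = 3), 2.26-fold, a log2 fold change of 0.95 ± 0.10 (SE, with a 95% confidence interval of 0.71 to 1.19 and an adjusted p of 0.000349 by limma). With T lineage scaling the value was 0.50 and stayed called (adjusted p 0.00433).

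Granzyme B, from Gzmb (ENSMUSG00000015437), cleaves after aspartate, caspases and Bid among its substrates, and is a main trigger of target apoptosis. MWA+PBS libraries held 12.93, 12.76 and 13.56 FPKM and MWA+2DG libraries 11.20, 9.54 and 10.33. Every MWA+2DG library was lower, by less than the distance seen for Gzmk. From 13.08 ± 0.421 the mean fell to 10.36 ± 0.83 (SD, n = 3), 0.792 of the MWA+PBS mean, a log2 fold change of -0.31 ± 0.07 (SE, with a 95% confidence interval of -0.47 to -0.15 and an adjusted p of 0.00964 by limma). The call held in each of 16 alternatives, with adjusted p up to 0.0339, and the value was -0.76 with T lineage scaling.

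For Gzma (ENSMUSG00000023132), whose protein is a tryptase that acts on a caspase-independent route, no difference was called. Values were 24.82, 28.06 and 21.57 FPKM in MWA+PBS libraries and 22.80, 21.28 and 24.53 in MWA+2DG. These ranges overlapped. Means were 24.82 ± 3.25 and 22.87 ± 1.63 (SD, n = 3) and the log2 fold change was -0.11 ± 0.10 (SE, with a 95% confidence interval of -0.34 to 0.12 and an adjusted p of 0.42 by limma), which does not show that the levels were alike. With T lineage scaling the value was -0.56 and was called lower (adjusted p 0.000538), the single alternative of 16 in which Gzma was called.

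In RefSeq gene order Gzmk is the next protein-coding gene after Gzma on chromosome 13. The ratio of these 2 neighbours differed between the groups: Gzmk over Gzma was 0.151, 0.124 and 0.126 in MWA+PBS and 0.346, 0.438 and 0.331 in MWA+2DG, a ratio that no scaling of the library changes. The difference in mean log2 ratio was 1.47 (two-sided exact permutation p 0.1, the smallest that 3 against 3 allows, in a comparison chosen after the values were seen). Gzmb lies in a cluster of serine protease genes on chromosome 14 with Ctsg and Mcpt8, proteases of myeloid cells and of basophils. Ctsg had a log2 fold change of -2.13 and Mcpt8 of -1.95, against -0.31 for Gzmb. Gzmc, next to Gzmb in that order, was listed at 0.12 FPKM in MWA+2DG replicate 4 and at 0 in the other 5 libraries.

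The 250 bases before the transcription start were taken from RefSeq (GRCm38.p6, which is not the mm9 build named in the submitters' notes) for 8 of the 9 genes. Gzmm and Srgn have 2 starts each, and Ctsw was not matched. The 4 promoters shown are those of the 2 neighbours whose ratio differed (Gzma and Gzmk), of Gzmb, which fell, and of Nkg7, the most abundant of the 9 genes. They are printed 5′ to 3′ in the gene's direction, and capitals mark each match on either strand to 4 short motifs: GGTGTGA (T-box, bound by T-bet and eomesodermin), TGTGGT (RUNX), TGANTCA (AP-1) and TGACGT (part of a CRE site). No matches overlapped in these sequences. The regions are chr13:113100982-113101231 minus strand for Gzma, chr13:113180966-113181215 minus strand for Gzmk, chr14:56262335-56262584 minus strand for Gzmb and chr7:43436888-43437137 plus strand for Nkg7.
Gzma: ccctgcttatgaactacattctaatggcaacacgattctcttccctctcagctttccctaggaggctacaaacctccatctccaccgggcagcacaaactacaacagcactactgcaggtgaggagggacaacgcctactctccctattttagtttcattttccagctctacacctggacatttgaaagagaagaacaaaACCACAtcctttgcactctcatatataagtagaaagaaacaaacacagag
Gzmk: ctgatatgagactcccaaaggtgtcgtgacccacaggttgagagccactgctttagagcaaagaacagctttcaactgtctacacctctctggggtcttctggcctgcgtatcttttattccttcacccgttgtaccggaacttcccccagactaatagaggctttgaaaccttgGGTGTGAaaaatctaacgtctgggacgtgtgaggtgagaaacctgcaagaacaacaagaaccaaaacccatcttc
Gzmb: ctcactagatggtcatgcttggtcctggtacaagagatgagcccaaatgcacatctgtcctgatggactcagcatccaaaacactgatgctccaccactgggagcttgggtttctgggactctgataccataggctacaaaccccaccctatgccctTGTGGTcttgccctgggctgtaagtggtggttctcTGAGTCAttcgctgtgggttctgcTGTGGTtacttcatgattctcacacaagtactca
Nkg7: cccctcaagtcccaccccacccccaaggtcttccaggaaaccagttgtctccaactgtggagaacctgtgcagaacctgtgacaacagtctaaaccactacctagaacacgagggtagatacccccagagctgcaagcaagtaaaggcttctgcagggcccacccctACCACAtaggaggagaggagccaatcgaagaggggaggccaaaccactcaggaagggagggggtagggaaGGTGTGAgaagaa

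The T-box letters were present before 3 of the 10 starts, in 3 of the 8 genes, and in 3.33% of the 32851 promoters of the same length. In Gzmk they began 75 bases before the start, in Nkg7 13 bases before it, and in Gzmm 189 bases before its second start. RUNX letters were found before 6 of the 10 starts, in 6 of the 8 genes (Gzma, Gzmb, Gzmm, Prf1, Nkg7 and Srgn), against 14% of all promoters. Gzmb held them 2 times, 93 and 34 bases before its start. Gzmb alone of the 8 had AP-1 letters, 58 bases before its start, so 1 of the 10 starts held them, against 6.75% of all promoters. The CRE letters were in Prf1 and Srgn, before 2 of the 10 starts, against 6.47%. A match of letters is a description and not a binding site.

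The granzymes differed in direction, and the makeup of their summed FPKM differed more between the groups than the sum itself. The sum of the 4 was 44.69, 46.68 and 40.62 FPKM in the PBS group and 48.26, 47.05 and 48.63 in MWA+2DG, with means of 44.0 ± 3.09 and 48.0 ± 0.826 (SD, n = 3). The sum too was higher in MWA+2DG without overlap (two-sided exact permutation p 0.1). Gzmk and Gzmm together made up 15.53%, 12.55% and 13.52% of it in MWA+PBS and 29.55%, 34.5% and 28.32% in MWA+2DG. The mean share of Gzmk went from 7.48% ± 0.839 to 17.6% ± 1.92 and that of Gzmm from 6.39% ± 1.09 to 13.2% ± 1.52 (SD, n = 3). In the other direction Gzma went from 56.3% ± 3.56 to 47.6% ± 2.63 and Gzmb from 29.9% ± 3.13 to 21.6% ± 1.49. Gzma remained the largest share in every library. The groups did not overlap for any of the 4 shares, with a two-sided exact permutation p of 0.1 for each, which is the smallest 3 against 3 can give, and shares of 1 sum are not independent of each other.

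**Figure D2:**
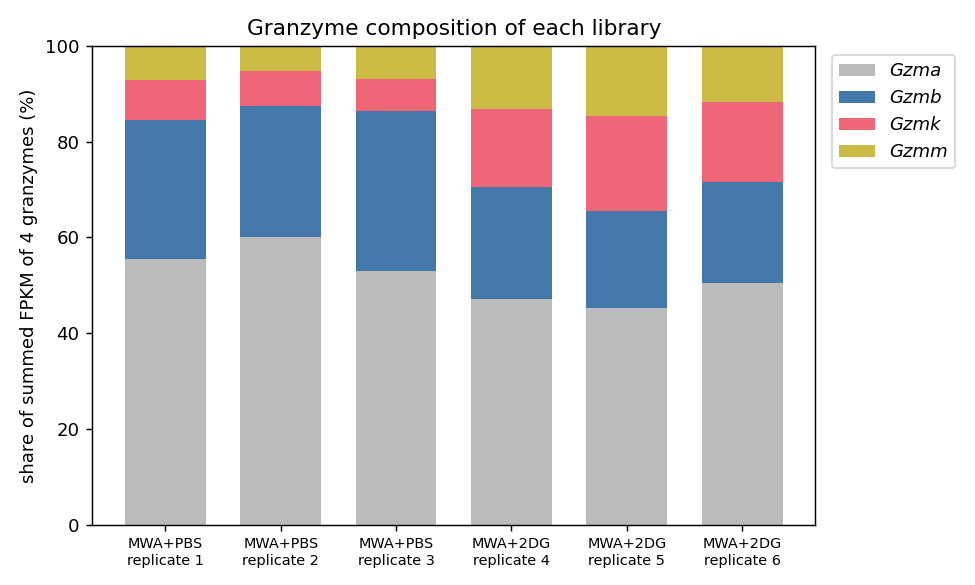
Share of Gzma, Gzmb, Gzmk and Gzmm in the summed FPKM of the 4 granzymes, in percent, with 1 stacked bar for each of the 6 libraries. Gzmk and Gzmm together took between 12.55% and 15.53% in the MWA+PBS libraries and between 28.32% and 34.5% in the MWA+2DG libraries, and Gzma stayed the largest part of every bar.

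Prf1 (ENSMUSG00000037202) encodes perforin, the pore through which granzymes reach the target's cytosol. It was read at 32.39, 26.57 and 32.21 FPKM in MWA+PBS libraries and at 41.83, 40.77 and 41.43 in MWA+2DG. The 3 MWA+2DG libraries were close together and above the other group. The mean went from 30.39 ± 3.31 to 41.34 ± 0.535 (SD, n = 3), 1.36-fold higher, with a log2 fold change of 0.44 ± 0.08 (SE, with a 95% confidence interval of 0.25 to 0.62 and an adjusted p of 0.00439 by limma). The value was -0.01 and not called with T lineage scaling (adjusted p 0.893). Prf1 lay above the median of all tested genes under both scalings, since that median moved from 0.05 to -0.41.

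Set against perforin in the same library, the granzymes split into 2 pairs. Gzmk over Prf1 and Gzmm over Prf1 were higher in MWA+2DG, by 0.91 and 0.73 in mean log2 ratio. Gzma over Prf1 and Gzmb over Prf1 were lower, by differences of -0.56 and -0.79. Over Prf1, 3.83% of all tested genes were higher and 60.7% lower without overlap, with a median difference of -0.39, so a lower ratio is common. Per library Gzmb over Prf1 was 0.399, 0.48 and 0.421 in MWA+PBS and 0.268, 0.234 and 0.25 in MWA+2DG. The groups did not overlap for any of the 4 ratios (two-sided exact permutation p 0.1 for each, Benjamini-Hochberg 0.156 over 14 ratios). Gzmb over Gzma overlapped between the groups, with a difference of -0.23 (exact permutation p 0.2).

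Nkg7 (ENSMUSG00000004612), a membrane protein of cytotoxic granules that is needed for their release, had the highest level of the 9 genes. Values were 129.34, 133.69 and 120.75 FPKM in the PBS group and 196.04, 189.90 and 180.63 in MWA+2DG. The lowest MWA+2DG value was far above the highest MWA+PBS value. The means, 127.9 ± 6.58 and 188.9 ± 7.76 (SD, n = 3), differed 1.48-fold, a log2 fold change of 0.56 ± 0.06 (SE, with a 95% confidence interval of 0.42 to 0.70 and an adjusted p of 0.000351 by limma). With T lineage scaling it was 0.11 and no longer called (adjusted p 0.118).

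Cathepsin W, the product of Ctsw (ENSMUSG00000024910), is a cysteine protease found mainly in CD8+ T cells and NK cells, and its role in killing is unsettled. The libraries held 103.36, 112.94 and 94.88 FPKM in the PBS group and 165.53, 140.96 and 156.65 in MWA+2DG. No values of the groups overlapped. Means were 103.7 ± 9.04 and 154.4 ± 12.4 (SD, n = 3), 1.49-fold higher, with a log2 fold change of 0.57 ± 0.08 (SE, with a 95% confidence interval of 0.37 to 0.77 and an adjusted p of 0.00167 by limma). This call too was absent with T lineage scaling, at 0.12 (adjusted p 0.137).

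Srgn (ENSMUSG00000020077) encodes serglycin, the proteoglycan core on which granzymes and perforin are packed, and is also made by mast cells, neutrophils, macrophages and platelets. It read 93.85, 102.41 and 86.90 FPKM in the PBS group and 78.91, 74.28 and 81.54 in MWA+2DG. All 3 MWA+2DG libraries were lower. Means of 94.39 ± 7.77 and 78.24 ± 3.68 (SD, n = 3) gave 0.829 of the MWA+PBS level and a log2 fold change of -0.27 ± 0.07 (SE, with a 95% confidence interval of -0.43 to -0.10 and an adjusted p of 0.0227 by limma). The call was lost without MWA+PBS replicate 1 (adjusted p 0.0639), MWA+2DG replicate 4 (0.0589) or MWA+2DG replicate 5 (0.0731), and without the filter (0.0504), while T lineage scaling gave -0.72. Markers of other cells that make serglycin moved with the groups: 0 of 8 mast cell and basophil markers were called higher and 7 lower, with a sum between 99.77 and 126.05 FPKM in the MWA+PBS libraries and between 27.38 and 28.86 in MWA+2DG, all 10 macrophage markers and 3 of 3 tested platelet markers were called lower, and 11 of 12 neutrophil markers were called higher. None of the mast cell and basophil markers was under the filter. Their part in the Srgn value was not tested.

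Fasl (ENSMUSG00000000817), the ligand of the Fas death receptor, was the lowest of the 9 genes. It was read at 1.17, 1.0 and 1.70 FPKM in MWA+PBS libraries and at 2.63, 1.82 and 2.67 in MWA+2DG. The groups did not overlap, but the highest MWA+PBS library and the lowest MWA+2DG library were close. Means were 1.29 ± 0.365 and 2.373 ± 0.48 (SD, n = 3), 1.84-fold apart, and the log2 fold change was 0.56 ± 0.15 (SE, with a 95% confidence interval of 0.21 to 0.92 and an adjusted p of 0.0226 by limma). This call was the least stable of the 8: adjusted p was 0.0678 without MWA+PBS replicate 1, 0.0587 without MWA+PBS replicate 2, 0.0758 without MWA+2DG replicate 4 and 0.0755 without MWA+2DG replicate 6. It was 0.0676 without the filter, 0.0569 with GC and length trends removed, and 0.539 with T lineage scaling. That scaling lowers a gene of such low FPKM by more than a scaling of FPKM would.

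**Figure D3:**
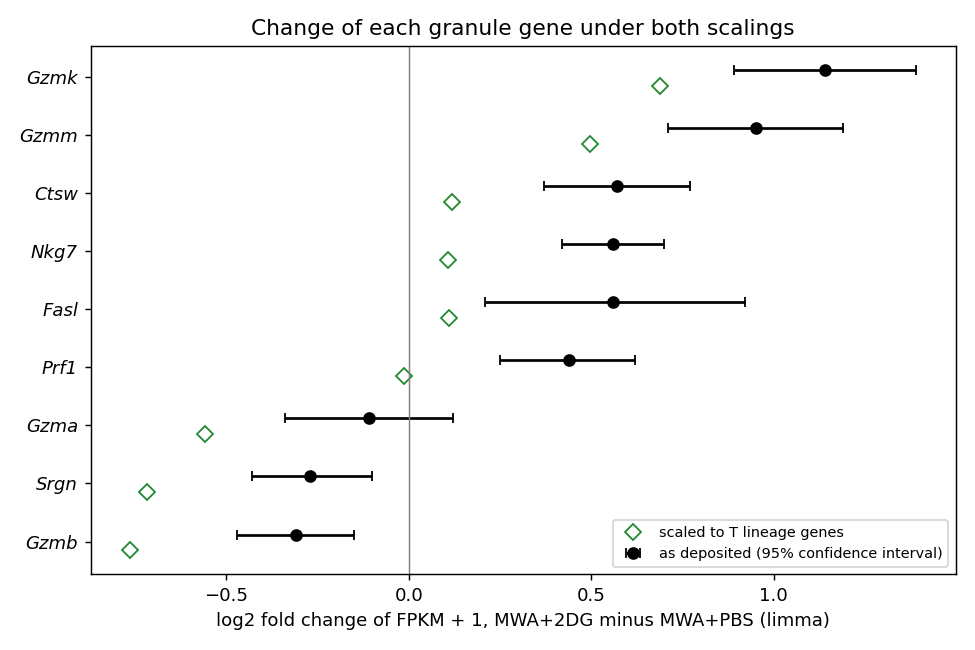
Log2 fold change of FPKM + 1, MWA+2DG minus MWA+PBS, for each of the 9 genes, as deposited (filled points with limma's 95% confidence interval) and after scaling to 17 T lineage genes (open diamonds). The scaling moved every gene to lower values, which left Gzmk at 0.69 and Gzmm at 0.50 as called higher, put Prf1 at -0.01, and put Gzma, Srgn and Gzmb at -0.56, -0.72 and -0.76. It was a subtraction on the log2(FPKM + 1) scale, which lowers genes of low FPKM by more than a scaling of FPKM would.

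Ratios to Cd8a in the same library gave the same grouping as T lineage scaling, and do not depend on how a library is scaled, though Cd8a is 1 of the 17 T lineage genes. Cd8a itself rose from 229.51, 239.27 and 225.80 FPKM to 363.14, 358.98 and 377.07, a log2 fold change of 0.66. Gzmk over Cd8a and Gzmm over Cd8a were higher in MWA+2DG, by 0.70 and 0.52 in mean log2 ratio, with no overlap. Lower and not overlapping were Gzma over Cd8a at -0.77, Srgn over Cd8a at -0.93 and Gzmb over Cd8a at -1.0. Over all tested genes the median of this difference was -0.61, and 2.83% were higher and 79.1% lower without overlap, so the lower ratios are near the background, with 31.1% of genes below Gzma, 20.2% below Srgn and 17.3% below Gzmb. For Prf1, Nkg7, Ctsw and Fasl over Cd8a the groups overlapped, with differences of -0.21, -0.10, -0.09 and 0.23. With a smallest possible exact permutation p of 0.1 none of the 14 ratios could pass 0.05, and 9 of them did not overlap between groups.

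NK cells and γδ T cells also carry these genes, so their markers stand beside the values. Of 11 NK cell markers, 5 were tested, 1 of them called higher and 2 lower, 5 were under the filter and Klra8 had no value. Their sum was between 21.04 and 24.02 FPKM in the MWA+PBS libraries and between 19.49 and 21.15 in MWA+2DG. Ncr1, the NK cell receptor NKp46, was lower at 4.76, 5.02 and 4.97 FPKM in MWA+2DG against 7.17, 6.34 and 6.12, while Klrb1c and Klre1 reached 1.10 FPKM at most. Klri1 was also called lower (log2 fold change -0.58, adjusted p 0.0388 by limma), and Klra3 was called higher (0.51, adjusted p 0.0273). Klrb1b was listed at 0 in 3 libraries. Of 8 tested γδ T and NKT cell markers, 4 were called higher and 1 lower, and the sum was between 24.91 and 28.46 FPKM in the MWA+PBS libraries and between 39.88 and 42.47 in MWA+2DG, with Trdc, the constant chain of the δ receptor, not called (log2 fold change 0.20, adjusted p 0.159). Blk, at 1.45, and Tcrg-C2, at 0.89, were among the 4 higher, and Zbtb16, at -0.40 (adjusted p 0.0358 by limma), was the 1 lower. B cells also express Blk, and 6 of 7 tested B cell markers were called higher, with a sum of 10.29 to 11.46 FPKM in the MWA+PBS libraries and of 46.28 to 51.25 in the MWA+2DG libraries. Plasmacytoid dendritic cells and mast cells can make granzyme B. Of 6 markers of the former 3 were tested, with 0 higher and 2 lower. The 6 summed to 33.38 to 38.91 FPKM in the MWA+PBS libraries, against 31.6 to 35.15 in the MWA+2DG libraries. Most of this was Bst2 (means 20.88 and 24.93, not called) and Ccr9 (9.37 and 7.51, called lower). Cox6a2 fell from a mean of 4.34 to 0.58 (log2 fold change -1.76, adjusted p 6.98e-05 by limma). Under the filter, Tcf4 went from 0.90 to 0.37 without overlap. Siglech, a receptor of these cells, was at 1.04 FPKM or less and also fell without overlap (0.88 to 0.52), while Cd209d overlapped. Of 8 mast cell and basophil markers 7 were called lower, with the sums given for Srgn. The part of any of these cell types in the granzyme values was not tested.

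The other genes of the pathway were taken from 5 hand-written lists of 74 genes, of which 65 were tested. Of these 26 were called higher and 15 lower after 2DG, and the median change was 0.06 on the log2 scale, against 22.3% and 17.1% of all tested genes. With T lineage scaling the counts were 5 higher and 41 lower, against 3.54% and 71.3% of all tested genes.

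Factors and receptors of the cytotoxic program were the list with the most higher calls, 13 of 22 tested, with 3 lower (22.3% and 17.1% of all tested genes) and a median of 0.46. Eomes, a T-box factor of memory and killer cells, was at 23.08, 22.97 and 22.45 FPKM in MWA+PBS libraries and at 44.51, 44.63 and 47.81 in MWA+2DG, 2-fold apart (log2 fold change 0.97 ± 0.05 SE, adjusted p 1.06e-05 by limma). Cd226, an activating receptor, had a log2 fold change of 0.77, Ccl5, a chemokine of memory T cells, of 0.66, and Il18r1, a chain of the IL-18 receptor, of 0.63. Eomes was at 0.52, Cd226 at 0.32 and Il18r1 at 0.18 with T lineage scaling, all 3 still called. Zeb2, a factor of terminal effector cells, fell from 3.667 ± 0.172 to 1.56 ± 0.0721 FPKM (SD, n = 3), a log2 fold change of -0.87 with an adjusted p of 0.000122 by limma. Macrophages also express Zeb2, and all 10 macrophage markers were called lower, and their part in the Zeb2 value was not tested. Runx3, which drives the CD8 killer program, had -0.52 (adjusted p 0.0291) and Il2rb, the β chain of the IL-2 and IL-15 receptors, -0.24 (adjusted p 0.0225). The Runx3 call was lost without MWA+PBS replicate 1 or 3 or MWA+2DG replicate 4 or 6, with adjusted p between 0.0801 and 0.0886, and without the filter (0.0801), and that of Il2rb without any 1 library but MWA+PBS replicate 2. Id2 and Stat5b were not called (log2 fold change 0.28 and -0.01). Id2 was called higher without MWA+PBS replicate 2 (adjusted p 0.0224) or MWA+2DG replicate 5 (0.0489) or with arrayWeights (0.33, adjusted p 0.0119), and its value was -0.17 with T lineage scaling, where Ccl5 was not called (0.21).

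Granule processing, docking and release gave 6 higher and 7 lower of 24 tested (22.3% and 17.1% of all tested genes), with a median of -0.06. The 4 lower genes with the largest change are found in lysosomes: Ctsb, a cathepsin, fell from 133.4 ± 5.56 to 32.21 ± 0.663 FPKM (SD, n = 3, log2 fold change -2.02), Ctsc, the peptidase that activates granzymes, from 31.25 ± 0.776 to 14.7 ± 0.298 (-1.04), Lamp1 from 97.98 ± 2.49 to 52.54 ± 1.06 (-0.89) and Lamp2 from 10.69 ± 0.31 to 6.05 ± 0.368 (-0.73), each with a limma adjusted p of 0.000117 or less. Macrophages are rich in lysosomes and also make these proteins, and all 10 macrophage markers fell with them, C1qa from 130.1 ± 7.43 to 20.25 ± 1.84 FPKM. The part of macrophages in these values was not tested. The 4 higher genes with the largest change were Sytl1, a Rab27 effector, at 0.35, Coro1a, which binds actin, at 0.32, and Stxbp2 and Vamp2, of the fusion machinery, at 0.29 and 0.27, all as deposited, but at -0.10, -0.13, -0.17 and -0.18 with T lineage scaling. Of other genes of the fusion machinery, Unc13d, which primes granules for fusion, was called higher as deposited, at 0.24 (adjusted p 0.0151 by limma), but lower with T lineage scaling, at -0.21. Its higher call was lost without MWA+2DG replicate 4 (adjusted p 0.0509) or 6 (0.0614). Snap23 was called lower, at -0.41 (adjusted p 0.00719), and Vamp8 and Stx11 were not called, at -0.26 and -0.14, though both were lower with T lineage scaling and Vamp8 also without MWA+PBS replicate 3 (adjusted p 0.0469). Sytl1 lost its call without MWA+PBS replicate 1 or 3 or MWA+2DG replicate 4 or 6, with adjusted p between 0.0545 and 0.0693. Rab7 and Dock8 were not called (-0.10 and 0.06), but T lineage scaling put Dock8 at -0.39 and Rab7 at -0.55, and Rab7 was also called lower with median ratio scaling (-0.15, adjusted p 0.0389).

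The inhibitors that protect a killer cell from its own proteases were called in both directions, with 3 higher and 2 lower of 7 tested (22.3% and 17.1% of all tested genes). Serpinb9, the inhibitor of granzyme B, was 8.09 ± 0.798 FPKM in the PBS group and 10.19 ± 0.187 in MWA+2DG (SD, n = 3), a log2 fold change of 0.30 (adjusted p 0.0145 by limma), a direction that T lineage scaling turned to -0.15. Serpinb1a rose by 0.47 on the log2 scale (0.02 and not called with T lineage scaling), and Cst7, cystatin F, which inhibits the granzyme activator cathepsin C, by 0.24, turned to -0.22 by T lineage scaling. Serpinb9 was not called without MWA+PBS replicate 1 (adjusted p 0.0563), nor Cst7 without MWA+PBS replicate 1 (0.0584) or 3 (0.0659) or MWA+2DG replicate 4 (0.071). Serpinb6a, an inhibitor of cathepsin G among others, fell from 9.59 ± 0.902 to 3.64 ± 0.382 FPKM (-1.19), and Serpina3g fell from 17.13 ± 1.09 to 8.627 ± 0.408 (-0.91). Myeloid cells also make serpins of this list, and 11 of 12 neutrophil markers were called higher while all 10 macrophage and 4 of 4 promyelocyte markers were called lower. Their part in these values was not tested. Serpinb6b and Cstb were not called, at -0.29 and -0.19, but both were called lower with T lineage scaling, and Serpinb6b also with GC and length trends removed (-0.38, adjusted p 0.0266).

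In the death receptor pathway 4 genes were higher and 2 lower of 11 tested (22.3% and 17.1% of all tested genes), with a median of 0.03. Both called ligands other than Fasl were higher: Lta, lymphotoxin α, at 2.133 ± 0.186 FPKM in the PBS group and 4.333 ± 0.531 in MWA+2DG (log2 fold change 0.76) and Tnfsf10, which encodes TRAIL, at 7.133 ± 0.272 and 12.01 ± 0.87 (0.68, with SD and n = 3). They were at 0.31 and 0.23 with T lineage scaling, both still called. The adaptor Fadd and the initiator caspase Casp8 were higher as deposited, at 0.34 and 0.28, and at -0.11 and -0.17 with T lineage scaling. Fadd was not called without MWA+2DG replicate 4 (adjusted p 0.0903) or 5 (0.0775), without the filter (0.0716) or with median ratio scaling (0.0526), nor Casp8 without MWA+2DG replicate 6 (0.0502). Bid, a granzyme B substrate, fell from 8.647 ± 0.286 to 6.857 ± 0.714 FPKM (SD, n = 3, log2 fold change -0.30). Fas, the receptor of Fasl, was not called at -0.21, except without MWA+PBS replicate 3 (-0.29, adjusted p 0.0488) and under 3 other settings that also gave lower values, and Cflar was not called at 0.03.

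Of the granzymes and granule serine proteases outside the 9 genes, Gzmd, Gzme, Gzmf, Gzmg and Gzmn had no value read and Gzmc was under the filter. Ctsg, cathepsin G, a protease of myeloid granules, was at 44.71, 44.29 and 40.03 FPKM in MWA+PBS libraries and at 10.10, 7.39 and 9.89 in MWA+2DG. The log2 fold change was -2.13 ± 0.11 (SE, adjusted p 1.01e-05 by limma). Markers of promyelocytes, which make this protease, moved the same way, with 4 of 4 called lower and a sum between 286.9 and 343.29 FPKM in the MWA+PBS libraries and between 52.4 and 54.24 in MWA+2DG. Their part in the Ctsg value was not tested.

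**Figure D4:**
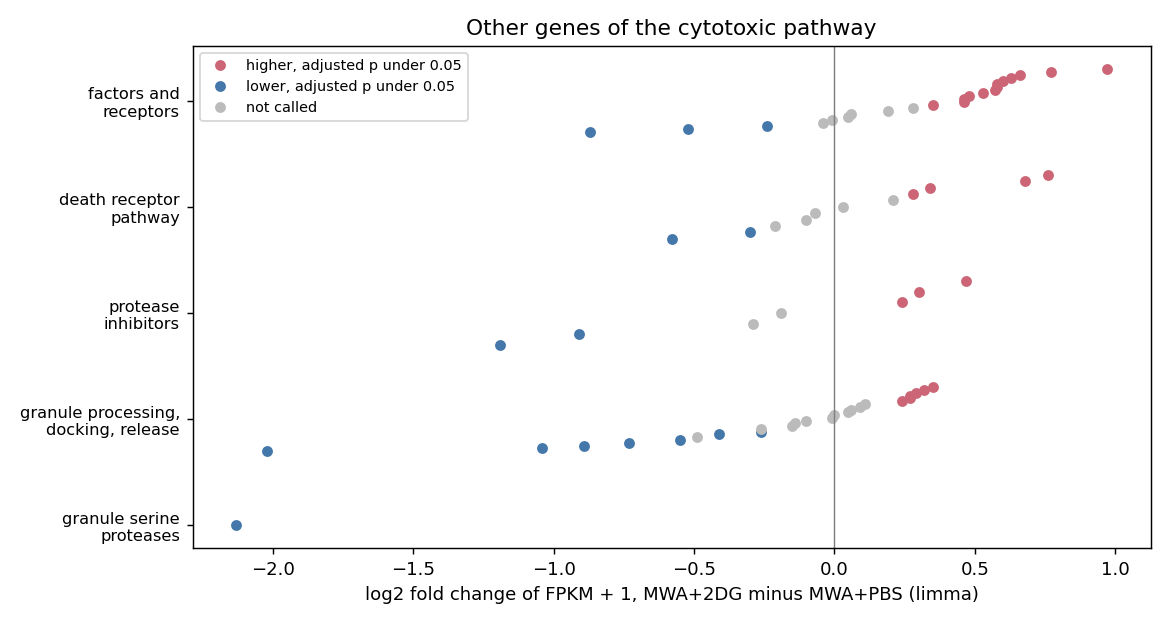
Log2 fold change of FPKM + 1, MWA+2DG minus MWA+PBS, for the 65 tested genes of 5 pathway lists as deposited, 1 point per gene, red for the 26 called higher, blue for the 15 called lower and grey for the rest. Factors and receptors lie mostly to the right (13 of 22 higher), and the 7 lower genes of granule processing reach -2.02. Of all tested genes 22.3% were called higher and 17.1% lower. With T lineage scaling 5 of the 65 were higher and 41 lower, against 3.54% and 71.3% of all tested genes.

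The genes whose pattern over the 6 libraries was most like that of Gzma, Gzmb and Prf1 were sought among 7313 genes with a mean of at least 5 FPKM, by Pearson's r of log2(FPKM + 1). For Prf1 they were Btbd6 (r 0.9975), Lfng (0.9954), Anxa6 (0.9950), Ank (0.9948) and Spn (0.9939), for Gzmb Ccnb2 (0.9938), Usp19 (0.9935), Ighv2-6 (0.9900), Ubap2l (0.9894) and Txnrd1 (0.9888), and for Gzma Stx12 (0.9917), Galnt1 (0.9895), Itch (0.9889), Taf7 (0.9856) and Hars (0.9824). Ccnb2, cyclin B2 of dividing cells, was at 11.3 FPKM in the PBS group and 5.8 in MWA+2DG. These are the highest of many values over 6 points that form 2 groups, so they describe the libraries and carry no test.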

How the data were processed

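Poly(A) RNA of 6 samples of splenic CD8+ T cells was sequenced in paired ends. Per the labels, the libraries marked strand and their adapters carried molecular identifiers, but no source used here says whether FPKM rest on deduplicated molecules. Per the study's methods, the authors used fastp for read quality, HISAT2 for mapping, StringTie for assembly, and StringTie with ballgown for FPKM. The submitters' processing notes also list cutadapt 1.9, HISAT2 2.0.4, UMI-tools, StringTie 1.3.4d and mm9, with no role or order. The deposited FPKM have 2 decimals and hold no counts. A search for a step worth 1 read found none that was usable, so the depth behind each value, and its counting error, are unknown. FPKM is a share of a library, so a class of transcripts that grows lowers the rest.

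GENCODE M21 gave symbols for 28689 of 28773 IDs. log2(FPKM + 1) of the 12444 genes with a mean of at least 1 FPKM was fitted with limma 3.58.1 in R 4.3.3 (lmFit, eBayes with a trend), without covariates. This scale understates the change of low genes. T lineage scaling subtracted the centred mean of the 17 genes on this scale, so it lowers low genes by more than a scaling of FPKM would. Ratios used FPKM + 0.01.

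The 9 genes and the lists were chosen with earlier results of these data known. Named pathway genes were, per list, the 4 called with the largest change in each direction and the 2 most abundant not called. One gene that this rule names is not reported here. Of the markers of other cells, a few fixed ones were named. Klrb1b, Klra8, Klri1, Klra3, Blk, Tcrg-C2, Zbtb16, Bst2, Ccr9, Cox6a2, Tcf4, Cd209d, Unc13d, Snap23, Vamp8, Stx11, Mcpt8's place in the locus, granzyme shares, the Gzmk over Gzma ratio, promoters, motifs and the ratios of all genes over Cd8a and Prf1 were chosen after the values were seen. Alternatives were another pseudocount, 2 other filters, quantile normalization, median ratio scaling, scaling to T lineage genes, scaling without 4 gene classes, eBayes without a trend, arrayWeights, removal of GC and length trends, a larger fold threshold and leaving out each library.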

Additional observations from a re-analysis of the deposited data

How the results depend on the processing

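Called values of the 9 genes kept their direction in every alternative run except that of Prf1, which T lineage scaling, lower by construction for every gene, put at -0.0139. That scaling gave 5 of the 9 genes called by either rule (2 higher), in place of 8 (6 higher), and 5 pathway genes higher and 41 lower, in place of 26 and 15. By adjusted p, that scaling called 3.54% of all tested genes higher and 71.3% lower. It also reversed Sytl1 (-0.102), Coro1a (-0.13), Stxbp2 (-0.166), Vamp2 (-0.179), Dock8 (-0.39), Serpinb9 (-0.148), Cst7 (-0.215), Fadd (-0.106), Casp8 (-0.172), Cflar (-0.426) and Id2 (-0.173). Among genes not called, median ratio scaling put Cflar at -0.022, removal of GC and length trends put Stat5b at 0.0552, and leaving out 1 library put Dock8 between -0.0146 and 0.109 and Stat5b between -0.0338 and 0.0226. Higher calls among the 9 genes went from 6 to 5 without the filter and with GC and length trends removed, lower calls from 2 to 1 without the filter, and by the study's rule to 1 with arrayWeights. With a log2 fold change beyond 1 the study's rule gave 1 gene (Gzmk), 1 higher and 0 lower. Leaving out 1 library gave between 6 and 8 called, between 5 and 6 higher and between 1 and 2 lower, with 1 lower without MWA+PBS replicate 1 or MWA+2DG replicate 4 or 5. By the study's rule it gave between 7 and 8, with 1 lower without MWA+PBS replicate 2 or MWA+2DG replicate 5. Pathway calls ranged from 34 to 42. The cause of these changes was not tested. Gzmm and Fasl are under the filter of 5 FPKM and were not tested there. Of the 14 ratios, 9 to 12 did not overlap when 1 library was left out. No paired analysis was possible because the 2 groups share no replicate number. Unknown depth limits the low genes most, Fasl above all.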
